A study of Mus musculus with 6 samples.

Results

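The turn from inflammation to repair after myocardial infarction was followed in wild-type mouse hearts by comparing 2 single-cell RNA sequencing libraries, made 24 h and 72 h after the left anterior descending coronary artery was ligated. All mice were C57BL/6JRj males of 8 to 12 weeks, and neither group carried an engineered allele. Each library pooled live cells from the ventricles of 4 mice, freed with thermolysin and papain, passed through meshes of 300 and 40 µm that hold back cardiomyocytes, and sorted as Calcein-AM stained and DAPI negative cells. Cells were kept when at least 200 genes were detected and at most 20% of their UMIs (counted RNA molecules) were mitochondrial, and likely doublets were left out. In all, 3361 cells at 24 h and 4385 at 72 h remained, 7746 of the 32030 cells kept from the 6 libraries of the series. With 1 library at each time there is no replicate check: no test was made, all intervals are 95% intervals of the counting error alone, and the spread between mice, ligations and library preparations is in none of them. Levels are also given for wild-type hearts 24 h after a sham operation (5247 cells, the same strain, age and handling), as a background at 24 h only. A pair of ligated libraries from Trpm4 knockout mice is set beside the wild-type pair at the end.

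Death of heart muscle cells first draws neutrophils and monocytes, which release cytokines and clear debris. Monocytes become macrophages that digest the dead cells, the cytokines subside, and fibroblasts divide, take on contractile proteins and lay down the collagen scar, while surviving capillaries sprout. Interferon-induced genes are switched on in cells that sense nucleic acids or secreted interferon.

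The 2 libraries differed in depth. The median kept cell had 4161 UMIs at 24 h and 8008 at 72 h, with median mitochondrial shares of 1.80% and 1.40%, and the libraries shared 3 cell barcodes. Within a class, the median UMIs per cell were close or lower at 72 h: 11589.5 and 11453.5 in monocyte/macrophage cells, 3162 and 2137 in neutrophils, 10801 and 9954 in fibroblasts, 3656 and 2944.5 in endothelial cells. Cells of all 6 libraries were clustered together and the clusters were named from marker genes, so each class below is a "like" class. Of 35 clusters, 2 stayed unnamed. One of them, a cycling cluster with 0 cells at 24 h and 193 at 72 h, had Mki67, a mark of dividing cells, at 288 CPM (UMIs of the gene scaled to 1000000 summed UMIs) and held UMIs of Lyz2 in 84.5%, Csf1r in 74.1% and C1qa in 67.4% of its cells, all genes of monocytes and macrophages. These cells are in no class below.

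Monocyte/macrophage and dendritic cells took larger shares of the sorted cells at 72 h than at 24 h, and neutrophils, endothelial cells and fibroblasts smaller ones. Monocyte/macrophage cells were 676 of 3361 cells (20.1%, exact interval 18.8 to 21.5) at 24 h and 1940 of 4385 (44.2%, 42.8 to 45.7) at 72 h, a difference of 24.1 percentage points (Newcombe interval 22.1 to 26.1). Dendritic cells, which present antigen, were 1.90% and 9.21%, a difference of 7.31 points (6.34 to 8.29). This class rests on cluster 5 and 3 markers, and it also held transcripts of monocytes and macrophages, as given at the end. B cells were 3.09% and 4.29%. Neutrophils were 1155 cells (34.4%) and 945 (21.6%), a difference of −12.8 points (−14.8 to −10.8). Endothelial cells were 735 (21.9%) and 254 (5.79%), a difference of −16.1 points (−17.6 to −14.5), and fibroblasts 195 (5.80%) and 145 (3.31%). Platelets were 5.24% and 1.25%. The interval of the T cell difference, −0.799 to 0.517 points, includes 0. Shares are of sorted live cells: a class that falls in share can be unchanged in number, and how the digest, meshes and sort at each time set these shares was not tested.

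**Figure D1:**
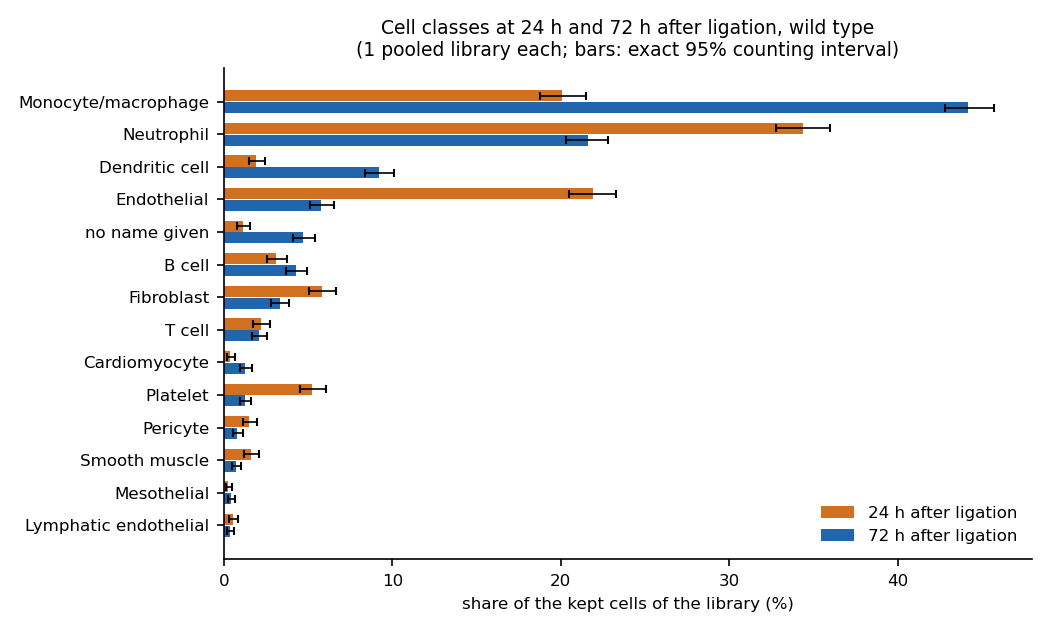
Share of kept cells in each class, in percent, at 24 h and 72 h after ligation (1 library of 4 pooled mice each, bars start at 0, error bars are exact 95% intervals of the counting error). Monocyte/macrophage cells stand at 20.1% and 44.2%, neutrophils at 34.4% and 21.6%, and endothelial cells at 21.9% and 5.79%.

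For expression, the UMIs of a class were summed over its cells in each library and scaled to CPM. A gene is said to rise or fall when its ratio of 72 h to 24 h was at least 2-fold both as CPM and relative to the median gene of the class, with the counting interval clear of 1. Genes needed 50 UMIs over both libraries, and log2 ratios are of 72 h to 24 h throughout.

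Monocyte/macrophage cells lost inflammatory transcripts and gained those of interferon response, lysosomes and antigen presentation. Of 10269 genes, 786 rose (7.65%) and 767 fell (7.47%), and the median gene had a log2 ratio of −0.04 (TMM scaling takes out a shift of −0.11). The cells of the 2 times lay mostly in different clusters: at 24 h in clusters 2 (306 cells), 8 (159), 9 (117) and 15 (70), and at 72 h in clusters 11 (576), 16 (536), 2 (303), 9 (241) and 8 (184). The class sums therefore mix changes within clusters with changes in the mix, and values within single clusters follow below.

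Of 25 inflammatory cytokine and chemokine genes, 22 fell and 0 rose in these cells, against the 7.47% of all genes that fell, and the list median was −2.04. Il6, a cytokine that drives the acute phase response, stood at 43.4 CPM at 24 h and 0.742 at 72 h, a log2 ratio of −5.87 (−6.64 to −5.19), with 8.82 in sham hearts. The neutrophil attractant Cxcl3 stood at 2277 and 87.9 CPM, −4.70 (−4.76 to −4.63). Cxcl2, which acts on the same receptor, stood at 3273 and 267 CPM, −3.61 (−3.65 to −3.57). Both attractants were thus below their sham levels of 308 and 915 CPM at 72 h. Ptgs2, the inducible enzyme of prostaglandin synthesis, fell from 123 to 7.87 CPM (−3.97), and Osm, a cytokine that acts on fibroblasts and cardiomyocytes, from 269 to 33.1 (−3.02). Il1b fell from 1020 to 241 CPM, −2.08 (−2.13 to −2.03), and its antagonist Il1rn from 173 to 42.0 (−2.04). The monocyte attractant Ccl2 fell from 5254 to 1609 CPM, −1.71 (−1.73 to −1.69), and stayed one of the higher cytokine transcripts. Ccl7, a related monocyte attractant, had 1968 and 1154 CPM (−0.77), and Sod2 (−0.53) and Icam1 (−0.37) likewise did not meet the rule. Nfkbia, which encodes the inhibitor that NF-kB itself switches on, fell from 734 to 257 CPM (−1.52).

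Promoter stretches are shown for 4 of these genes because they hold GGGA, any 2 bases and then TTCC, a core that NF-kB, the factor behind much of this list, can bind. The search ran on both strands, overlaps counted, in RefSeq windows from 250 bases before to 50 after each start on GRCm38.p6. Of the 25 genes, 19 had a window and 5 of these held the core (26.3%: Cxcl1, Cxcl2, Cxcl3, Il6 and Nfkbia), against 1.63% of 27025 genes and 1.47% of 32851 windows. Stretches are 5′ to 3′ on the gene's strand with the core in capitals, at chr5:90891154-90891204 (plus) for Cxcl1, chr5:90903782-90903832 (plus) for Cxcl2, chr5:90786008-90786058 (plus) for Cxcl3 and chr12:55492648-55492696 (minus) for Nfkbia. In the Cxcl genes the capitals cover 2 overlapping matches, 1 on each strand.
Cxcl1: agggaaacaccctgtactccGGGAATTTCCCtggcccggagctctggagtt
Cxcl2: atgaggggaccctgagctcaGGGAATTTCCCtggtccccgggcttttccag
Cxcl3: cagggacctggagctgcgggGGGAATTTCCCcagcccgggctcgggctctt
Nfkbia: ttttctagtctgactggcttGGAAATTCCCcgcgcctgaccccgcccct
The 3 Cxcl genes share the same letters in capitals. A match says only that the letters are there.

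Interferon-induced genes moved the other way in the same cells. Of 24 genes in the files, all measured, 21 rose and 0 fell, against 7.65% of all genes that rose, with a list median of 1.92 (1 gene at its bound). Ifit3, which encodes an antiviral protein, stood at 8.07 CPM at 24 h and 136 at 72 h, 4.07 (3.73 to 4.43), with 5.88 in sham. Its relatives Ifit1 (8.07 and 83.4, 3.37) and Ifit2 (3.00 and 69.2, 4.53) rose too. Isg15, a ubiquitin-like protein, stood at 123 and 463 CPM, 1.92 (1.83 to 2.01), with 48.0 in sham. Irf7, the factor that amplifies interferon production, rose from 58.4 to 343 (2.56). Cxcl10, an attractant of T cells, rose from 32.9 to 213 CPM, 2.70 (2.53 to 2.88), although 31.6% of its UMIs at 24 h came from 1 cell. Stat2 and Ifi204 did not meet the rule.

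The core of the interferon-stimulated response element, GAAA, any 2 bases and GAAA again, was searched in the same way, and stretches are shown for 4 genes with different numbers of matches. It was in 10 of the 18 interferon-induced genes with a window (55.6%), against 3.99% of all genes and 3.44% of windows. The positions are chr19:34583353-34583436 (plus) for Ifit3, chr19:34640765-34640833 (plus) for Ifit1, chr4:156200855-156200916 (minus) for Isg15 and chr5:92349073-92349122 (minus) for Cxcl10.
Ifit3: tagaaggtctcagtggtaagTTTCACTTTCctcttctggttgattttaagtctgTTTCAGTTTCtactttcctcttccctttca
Ifit1: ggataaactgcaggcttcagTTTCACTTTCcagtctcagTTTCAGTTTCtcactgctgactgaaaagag
Isg15: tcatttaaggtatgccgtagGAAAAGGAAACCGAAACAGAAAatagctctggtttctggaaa
Cxcl10: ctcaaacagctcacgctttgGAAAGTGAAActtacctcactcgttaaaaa
Ifit3 and Ifit1 each hold 2 separate matches, read here on the opposite strand, Isg15 holds 3 that overlap, and Cxcl10 holds 1.

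The interferon signal was concentrated in 1 cluster. Cluster 16 held 27.6% of monocyte/macrophage cells at 72 h, 29.3% of the class UMIs and 71.6% of the UMIs of the interferon list, against 1.18%, 0.864% and 6.43% at 24 h. Because genes of this list help to set that cluster apart, its share is a description of where the transcripts lay. Within the clusters present at both times the list medians were lower than in the class sum: 0.31 in cluster 2, 0.40 in cluster 8, 0.11 in cluster 9 and 0.69 in cluster 15. In cluster 2, Isg15 had 110 and 134 CPM, and Cxcl10, with 23.7 and 5.86 CPM, was lower at 72 h (−2.02).

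The inflammatory list, by contrast, was lower within clusters as well. Its medians were −1.53 in cluster 2 (22 of 23 measured genes below 0), −1.76 in cluster 8, −1.09 in cluster 9 and −2.97 in cluster 15, where all genes had medians of 0.00, −0.11, −0.03 and −0.21. In cluster 2, Cxcl3 stood at 3350 and 365 CPM (−3.20) and Ccl2 at 7827 and 3102 (−1.34). Arg1, the arginase of wound macrophages, is not in this list. It had 3567 and 713 CPM in the class sum. Within cluster 2 it had 3179 and 1489 CPM (−1.09), and within cluster 8 7059 and 3353 (−1.07). In cluster 15 it had 1675 and 50.4 CPM (−5.05). Cluster 9 had 27.7 and 18.7 CPM, with an interval of the log2 ratio, −1.26 to 0.14, that includes 0.

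Many genes of lysosomes and lipid handling rose: of 24, 12 rose and 1 fell, with a median of 1.04. Gpnmb, a glycoprotein of phagocytes loaded with lipid, stood at 3.92 and 157 CPM, 5.33 (4.84 to 5.86), with 20.2 in sham. Trem2, the lipid-sensing receptor of phagocytes, rose from 138 to 720 CPM, 2.39 (2.30 to 2.47), and Apoe, which carries cholesterol out of them, from 3580 to 15228, 2.09 (2.07 to 2.11). The lysosomal proteases Ctsd (798 and 3428 CPM, 2.10) and Ctsb (1541 and 4953, 1.68), the lysosomal lipase Lipa (69.7 and 231, 1.73) and the glycosidase subunit Hexa (148 and 561, 1.92) rose together. The tetraspanin Cd9 was the member that fell, from 489 to 132 CPM (−1.89), and the fatty acid receptor Cd36 had 126 and 82.6 CPM (−0.61). Within cluster 2, Apoe had 3286 and 9467 CPM (1.53), Trem2 141 and 445 (1.66) and Ctsd 882 and 2413 (1.45). Cluster 9 differed for Apoe, which had 4772 and 2795 CPM there (−0.77, interval −0.82 to −0.72), with Trem2 at 0.34 and Ctsd at 1.53. The list medians within clusters 2, 8, 9 and 15 were 0.56, 0.44, 0.32 and 0.28.

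Complement and dead-cell clearance split within the list, with 6 of 17 genes higher, 3 lower and a median of 0.45. The complement subunits C1qa (845 and 2351 CPM, 1.48), C1qb (998 and 3147, 1.66) and C1qc (638 and 1555, 1.29) rose, as did Gas6 (14.5 and 95.2, 2.71), the bridge between dying cells and the receptors Mertk and Axl. The receptor Mertk itself had 24.9 and 34.8 CPM (0.48). Within clusters 2, 8, 9 and 15 the list medians were 0.23, 0.61, −0.47 and 0.14, and C1qa had ratios of 0.52, 1.85, −3.16 and 0.61, the third from 77.5 and 8.64 CPM. The haemoglobin scavenger receptor Cd163 (86.5 and 8.74 CPM, −3.31) and the scavenger receptor Msr1 (549 and 205, −1.42) fell. Of 12 genes of resident cardiac macrophages, 1 rose and 5 fell, with a median of −0.28 that turned to 0.20 when each cell was thinned to 1500 UMIs and was 0.19, −0.17 and −0.56 within clusters 2, 8 and 15. Lyve1, a hyaluronan receptor of resident macrophages, stood at 35.8 and 4.70 CPM (−2.93), with 99.3 in sham. Igf1, a growth factor of muscle and stroma, was the member that rose, from 20.5 to 60.8 CPM, 1.57 (1.34 to 1.80).

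Monocyte genes fell in the main: 9 of 15 fell, 1 rose, and the median was −1.25 (−0.92, 0.05, −0.15 and −2.74 within clusters 2, 8, 9 and 15). Vcan, the proteoglycan of early monocytes, fell from 704 to 53.4 CPM (−3.72), the chitinase-like Chil3 from 3253 to 619 (−2.39), and the matricellular Thbs1 from 2035 to 476 (−2.10). Ly6c2, the surface mark of inflammatory monocytes, rose from 160 to 338 CPM (1.08), and the receptor for Ccl2, Ccr2, had 622 and 531 (−0.23). Ly6c2 is also among the leading genes of cluster 16, where the interferon signal lay and which held 8 cells at 24 h and 536 at 72 h. Of 10 genes of MHC class II presentation 5 rose and 1 fell, with a median of 1.14. H2-Ab1 stood at 142 and 584 CPM (2.04), against 574 in sham, and H2-Aa at 118 and 516 (2.13), while the costimulator Cd86 fell from 111 to 41.5 (−1.42). Within clusters 2, 8, 9 and 15 the list medians were 0.19, 2.44, 0.65 and 2.44, and H2-Ab1 had ratios of 0.37, 2.95, 1.09 and 3.31, which is below 2-fold in cluster 2, the largest cluster present at both times.

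Secreted growth factors went both ways: of 17 measured, 5 rose and 6 fell, with a median of −0.50 (0.15 when cells were weighted equally). Within clusters the measured members were mostly lower, with medians of −1.18 in cluster 2 (9 of 10 below 0), −1.14 in cluster 8 (7 of 7) and −1.36 in cluster 15 (5 of 6). The vessel growth factor Vegfa fell from 69.4 to 7.21 CPM, −3.27 (−3.52 to −3.02), and the epidermal growth factor relatives Hbegf (9.92 and 1.69, −2.55) and Areg (36.7 and 1.32, −4.80) fell. Gdf15, a stress hormone, rose from 3.81 to 27.0 (2.83), with Pdgfc (1.53), Vegfb (1.56), Hgf (1.03) and Igf1. Spp1, or osteopontin, had 4704 and 5829 CPM (0.31), Tgfb1 349 and 248 (−0.50), and Il10 1.73 and 2.93, with an interval of its log2 ratio, −0.06 to 1.67, that includes 0. Within clusters 2, 8 and 15 Spp1 was lower at 72 h, with ratios of −0.30, −1.14 and −1.33. In cluster 9 it was higher, at 20.6 and 113 CPM (2.46).

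Of 27 genes of glycolysis and the response to low oxygen, 13 fell and 0 rose (median −0.88, and −0.49, −0.18, 0.02 and −1.45 within clusters 2, 8, 9 and 15). Those that fell included the oxygen sensor Egln3 (57.7 and 6.02 CPM, −3.26), the lipid droplet protein Hilpda (382 and 45.4, −3.07), hexokinase Hk2 (287 and 53.9, −2.41) and the glucose carrier Slc2a1 (143 and 36.7, −1.97), while the glycolytic enzymes Ldha (−0.56) and Gapdh (−0.44) did not meet the rule. No gene of 30 for oxidative phosphorylation met it in either direction (median 0.21). Of 16 genes of haem and iron handling, 7 rose and 3 fell (median 0.89, and 0.43, −0.06, 0.28 and −0.59 within those clusters): Hmox1, which breaks down haem, stood at 1190 and 2434 CPM (1.03) and the iron exporter Slc40a1 at 5.31 and 17.1 (1.68). Within clusters 2, 8 and 9 Hmox1 had ratios of 0.56, 1.33 and 0.42. Cluster 15 went the other way, at 1708 and 383 CPM (−2.16). Of 15 proliferation genes 8 rose and 0 fell (median 1.30, and 0.13 within cluster 2), among them Stmn1, a regulator of microtubules (3.92 and 42.5 CPM, 3.44). The list summed to 304 and 401 CPM, and the unnamed cycling cluster with macrophage genes is outside this class. Of 11 metalloproteinases and inhibitors 4 fell, led by Mmp19 (234 and 25.6 CPM, −3.19), and the inhibitor Timp2 rose (62.4 and 233, 1.90). Glucocorticoid-induced genes fell in 12 of 16 (median −1.65), with Fkbp5 at 63.2 and 15.5 CPM (−2.02) and the decoy receptor Il1r2 at 65.5 and 3.38 (−4.28). Il1r2 is also a neutrophil marker, at 2425 and 1040 CPM in neutrophils, and the part of neutrophil RNA in its fall was not tested. Genes that cell dissociation can induce fell in 8 of 16 (median −0.94). The part of handling in these values was not tested.

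The genes with the highest ratios by the naming rule were Syngr1 (1.61 and 145 CPM, 6.49), the chemokine Ccl8 (8.19 and 398, 5.60), Gpnmb, Ifit3, Fcrls (19.6 and 311, 3.99), the macrophage membrane protein Ms4a7 (63.6 and 985, 3.95), Cd72 (9.57 and 127, 3.73) and Tmem86a (20.4 and 142, 2.80). Syngr1, Gpnmb, Fcrls and Ms4a7 are among the leading genes of cluster 11, which held 2 cells at 24 h and 576 at 72 h. Within cluster 2, Syngr1 had a ratio of 3.19, Gpnmb of 2.75 and Fcrls of 2.54. Those with the lowest were the plasminogen activator inhibitor Serpinb2 (138 and 3.42, −5.34), Cxcl3, the eosinophil attractant Ccl24 (1320 and 56.1, −4.56), Vcan, Mmp19, Hilpda, Ccl3 (322 and 50.2, −2.68) and the transcription factor Tfec (102 and 16.2, −2.65). Ccl24 was high in sham too, at 1402 CPM. Neutrophil RNA was also lower in these cells at 72 h: 14 neutrophil markers summed to 3139 CPM at 24 h and 584 at 72 h, where Ly6g was at 0, against 155382 and 75669 in neutrophils themselves. All 14 and 13 of 14 were above 0. Lcn2, an iron-binding granule protein, stood at 296 and 6.43 CPM (−5.53), with a 24 h level 0.0967 times that of neutrophils, and what part of such values is neutrophil RNA was not tested.

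**Figure D2:**
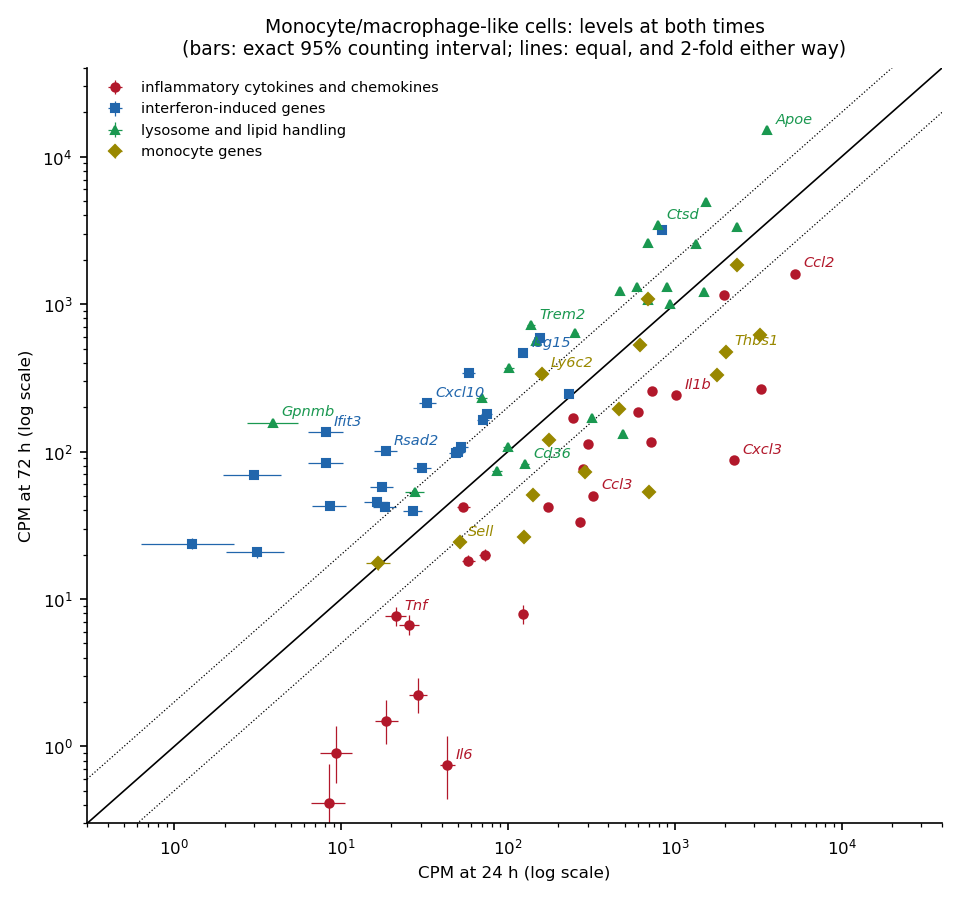
Level in monocyte/macrophage cells in CPM at 24 h (x axis, log scale) and 72 h (y axis, log scale) for 4 gene lists, 1 point per gene with exact 95% counting intervals, and lines at equal levels and at 2-fold. Cxcl3 of the inflammatory list (2277 and 87.9) lies below the lines. Ifit3 of the interferon list (8.07 and 136) and Apoe of the lysosome and lipid handling list (3580 and 15228) lie above them.

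Neutrophils lost granule transcripts and chemokines. Of 6446 genes, 1067 rose (16.6%) and 444 fell (6.89%). The median gene stood at 0.54, so list medians are also given relative to it, and scaling by TMM, which lowers all ratios by 0.68, gave 890 higher and 959 lower. Cells at 24 h were mostly in clusters 1 (801), 4 (190) and 14, with 63 in cluster 3, and at 72 h in clusters 3 (549), 14 (251), 4 (76) and 1 (69).

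Of 18 genes of granules and maturation 10 fell and 1 rose, with a median of −1.27 (−1.80 relative to the median gene). Cd177, an adhesion partner of mature neutrophils, stood at 529 and 13.2 CPM, −5.33 (−5.93 to −4.78). The granule genes Lcn2 (3064 and 352, −3.12), Ngp (57.0 and 1.95, −4.87), Retnlg (5447 and 1021, −2.42) and Mmp8 (187 and 30.2, −2.63) fell. S100a9, a subunit of the alarmin calprotectin, fell from 69768 to 28395 CPM (−1.30), and its partner S100a8 had 59718 and 33669 (−0.83). Prtn3, a protease of immature granules, rose from 5.24 to 31.2 (2.57). The list was lower within clusters 1, 3, 4 and 14 too, with medians of −0.84, −0.94, −0.54 and −1.81.

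Of 22 genes known from neutrophils settled in tissue, 2 rose and 4 fell (median −0.08, and −0.76 with TMM), against 16.6% and 6.89% of all genes. The medians within clusters 1, 3, 4 and 14 were 0.15, −0.50, 0.05 and 0.09. Siglecf, a lectin receptor of eosinophils that also marks a tissue state of neutrophils, stood at 29.6 CPM at 24 h and 287 at 72 h, 3.28 (3.00 to 3.57), with 121 in sham. Ltc4s, the enzyme that makes leukotriene C4, stood at 5.48 and 209 CPM, 5.25 (4.65 to 5.92). Within clusters 1, 3 and 14 Siglecf had ratios of 2.08, 1.63 and 3.48. In cluster 4 it had 28 and 7 UMIs (41.4 and 38.7 CPM), too few for a ratio, and Ltc4s had 2 and 0. Siglecf is a leading gene of cluster 3, which held 63 cells at 24 h and 549 at 72 h. The members that fell were Xbp1 (880 and 237, −1.90), the checkpoint ligand Cd274 (79.8 and 37.6, −1.09), Ccl4 and Spp1.

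Of 22 inflammatory genes 8 fell and 0 rose (median −0.69, or −1.23 relative to the median gene). Cxcl3 fell from 4980 to 382 CPM (−3.70), Osm from 1121 to 136 (−3.05), the chemokine Ccl4 from 3057 to 868 (−1.82) and Cxcl2 from 22787 to 8914 (−1.35). Il1b had 12766 CPM at 24 h, 12398 at 72 h and 13186 in sham, a log2 ratio of −0.04 (−0.06 to −0.02) that is −0.58 relative to the median gene and −0.72 with TMM. Tnf had 188 and 265 CPM (0.49, and −0.18 with TMM). The list medians within clusters 1, 3, 4 and 14 were 0.21, −0.00, −0.19 and −0.59, nearer to 0 than in the class sum. Cxcl2 in cluster 1 had 25867 and 23923 CPM (−0.11).

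Interferon-induced genes rose in 9 of 23 (median 1.13, or 0.59 relative to the median gene, against 16.6% of all genes). Ifi27l2a stood at 361 and 4529 CPM, 3.65 (3.57 to 3.73), Ifit3 at 52.0 and 537 (3.37) and Bst2, which tethers virus particles to the cell, at 33.8 and 218 (2.69). The medians within clusters 1, 3, 4 and 14 were 0.44, 1.0, 0.73 and 0.25, where all genes had 0.11, 0.22, −0.01 and 0.35. Cluster 14 held 55.2% of the list's UMIs in neutrophils at 24 h and 83.0% at 72 h, with 8.74% and 26.6% of the cells. When the pair of libraries was clustered alone, an interferon-led cluster of 174 cells at 72 h could not be named and the list median of the rest turned to −0.72.

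Transcripts of energy use shifted in neutrophils. Of 30 genes of oxidative phosphorylation 17 rose and 0 fell, with a median of 1.65, or 1.11 relative to the median gene, among them the ATP synthase gene Atp5g1 (24.8 and 185 CPM, 2.90) and the complex I gene Ndufb8 (47.4 and 239, 2.33). Ribosomal protein genes also rose in 17 of 24 (median 1.68, relative 1.14). Glycolysis and low-oxygen genes fell in 10 of 27 and rose in 1 (median −0.63, relative −1.17, and −0.61, 0.33, 0.32 and −1.17 within clusters 1, 3, 4 and 14), with Egln3 at 349 and 50.2 CPM (−2.80) and Hk2 at 322 and 102 (−1.66). The median of the oxidative list was 1.27, 1.10, 0.58 and 1.76 within clusters 1, 3, 4 and 14. Among 19 genes of neutrophil death and survival 2 rose, against 16.6% of all genes, namely the death effectors Bax (38.8 and 225, 2.54) and Pmaip1 (38.6 and 168, 2.12), and 4 fell, among them the death receptor Fas (240 and 55.1, −2.12) and the survival gene Bcl2l1 (184 and 56.1, −1.71), while Mcl1, which keeps neutrophils alive, had 3132 and 2088 (−0.59, or −1.26 with TMM). The list medians within clusters 1, 3, 4 and 14 were 0.37, 0.29, −0.56 and −0.57. Growth factors fell in 5 of 8 (median −2.05), including Thbs1 (1314 and 208, −2.66) and Spp1 (607 and 194, −1.64).

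By the naming rule the highest ratios were Ltc4s, Pmf1 (5.48 and 133 CPM, 4.60), Rex1bd (6.67 at 24 h, 3.92), the RNA-processing gene Lsm6 (10.0 and 132, 3.72), Ifi27l2a, the transcription factor Lyl1 (11.2 and 138, 3.62), the spliceosome gene Snrpg (40.0 and 442, 3.47) and Nop10 (18.4 and 201, 3.45). The lowest were Cd177, the lipase Lipg (117 and 3.41, −5.10), Mmp19 (136 and 4.39, −4.95), the actin regulators Enah (148 and 5.85, −4.66) and Fmnl2 (162 and 7.80, −4.38), the cytokine brake Cish (241 and 10.7, −4.49), Chil3 (2112 and 97.1, −4.44) and the transcription factor Snai1 (136 and 6.83, −4.32). The 24 monocyte/macrophage markers summed to 4120 CPM at 24 h and 2658 at 72 h in these cells, and their part in the falls of Chil3, Thbs1 and Spp1 was not tested.

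Fibroblasts at 72 h carried the transcripts of dividing, contractile and collagen-making cells. Of 8480 genes, 520 rose (6.13%) and 801 fell (9.45%). The median gene stood at −0.27, and TMM, which takes out a shift of −0.27, gave 790 higher and 801 lower. The classes rest on few cells from different clusters: 13 (110 cells), 32 (55) and 31 (25) at 24 h, and 12 (94) and 13 (37) at 72 h.

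Of 28 myofibroblast and matricellular genes 17 rose and 1 fell, with a median of 1.53 (1.79 relative to the median gene, 1 gene at its bound). Acta2, the smooth muscle actin of myofibroblasts, stood at 12.6 CPM at 24 h and 2215 at 72 h, 7.46 (6.96 to 8.01), with 46.2 in sham. It was found in 16 of 195 cells (8.21%) and 92 of 145 (63.4%). Cthrc1, a secreted protein of scar-forming fibroblasts, stood at 32.2 and 1061 CPM, 5.04 (4.73 to 5.38), and was found in 73 cells at 72 h (50.3%). The contractile genes Tagln (15.7 and 1146, 6.19), Tpm2 (59.0 and 970, 4.04) and Myl9 (11.8 and 208, 4.14) and the matricellular gene Postn (117 and 856, 2.87) rose with them. The 10 smooth muscle markers, which include Acta2 and Tagln, summed to 78.6 CPM at 24 h (5 above 0) and 3466 at 72 h (9 above 0, Sost at 0). Myh11, the myosin that defines smooth muscle, had 2 UMIs in 1 fibroblast at 24 h and 43 UMIs in 2 at 72 h, against 4198 and 4434 CPM in smooth muscle cells. Cthrc1 was at 0 in smooth muscle cells at both times. Pericytes had little Myh11 (82.6 and 62.4 CPM), so it does not speak to their RNA. The pericyte marker Rgs5 had 13.8 and 3.90 CPM in fibroblasts, against 7669 and 3123 in pericytes. The part of smooth muscle or pericyte RNA in the rises of Acta2 and Tagln was not tested.

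Of 28 matrix genes 15 rose and 2 fell, with a median of 1.03 (relative 1.30). The fibrillar collagens Col1a1 (833 and 6994 CPM, 3.07, interval 3.01 to 3.14), Col1a2 (892 and 6111, 2.78) and Col3a1 (1123 and 6564, 2.55) rose, and sham levels were 1642 CPM for Col1a1 and 2986 for Col3a1. Fn1, the fibronectin of the first wound matrix, stood at 122 and 1528 (3.65), and the matricellular Tnc, found at wound edges, at 226 and 685 (1.60), with 50.5 in sham. The basement membrane collagen Col4a1 (874 and 342, −1.35) and the small proteoglycan Dcn (10612 and 3430, −1.63) fell. Genes that fold and crosslink collagen rose in 9 of 18 and fell in 0 (median 0.94): the collagen chaperone Serpinh1 stood at 679 and 2561 CPM (1.91), and the crosslinkers Lox at 153 and 410 (1.42), Loxl2 at 106 and 358 (1.75) and Loxl3 at 23.2 and 162 (2.81).

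Of 24 genes of quiescent fibroblasts 16 fell and 0 rose, with a median of −1.61 (relative −1.34). The actin-severing gelsolin gene Gsn stood at 11149 and 2534 CPM, −2.14 (−2.17 to −2.10), with 15193 in sham. Clec3b (657 and 131, −2.33), Dpt (599 and 238, −1.33), Smoc2 (362 and 133, −1.45) and the growth factor receptor Pdgfra (452 and 133, −1.76) fell, while the lineage factor Tcf21 (−0.73) and Mfap5 (−0.43) did not meet the rule.

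Within cluster 13, the fibroblast cluster with cells at both times, the picture was partial. The matrix list had a median of 0.91 there (20 of 24 genes above 0), with Col1a1 at 1274 and 2771 CPM (1.12) and Postn at 105 and 431 (2.04). The myofibroblast list had a median of 0.24, Acta2 had 4 and 12 UMIs, the quiescent list had a median of 0.09, and Gsn had 19332 and 20412 CPM (0.08), where all genes stood at −0.12. Cluster 12, with 3 cells at 24 h, held 64.8% of the fibroblasts at 72 h, 85.6% of their UMIs and 94.0% of the UMIs of the myofibroblast list.

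Proliferation genes rose in 18 of 20 and fell in 0, with a median of 5.22 that includes 4 genes at their bound. Birc5, which works at the dividing chromosome, stood at 1.18 and 173 CPM, 7.20 (5.64 to 9.48), and Cenpa, the centromeric histone, at 3.93 and 180 (5.52). Mki67 had 0 UMIs at 24 h and 52.0 CPM at 72 h, which against the limit of 3 counts is a log2 ratio of at least 5.46, and the cyclin Ccnb2 had 0 and 94.8, at least 6.33. The letters TTTGAA of the cell cycle genes homology region, an element of genes expressed before mitosis, were in 10 of 18 proliferation genes with a window (55.6%), against 20.2% of all genes. Cdk1, the kinase that starts mitosis, is shown because it holds the element at 2 places, at chr10:69352913-69353003 (minus, GRCm38.p6, RefSeq).
Cdk1: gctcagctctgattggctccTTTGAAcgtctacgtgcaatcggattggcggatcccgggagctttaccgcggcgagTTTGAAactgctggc
The second match ends near the start of transcription.

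Inflammatory genes fell in 12 of 17 fibroblast genes measured and rose in 0 (median −1.60, relative −1.33). The neutrophil attractant Cxcl5 stood at 1772 and 381 CPM (−2.22), with 529 in sham, and Cxcl1, whose promoter stretch is given above, at 797 and 175 (−2.19), with 23.2% of its UMIs at 24 h in 1 cell. Ccl2 fell from 1106 to 364 (−1.60) and Il6 had 59.7 and 39.6 (−0.59), with 44.7% of its UMIs at 24 h and 42.6% at 72 h in 1 cell. Cluster 32 held 88.3% of the inflammatory UMIs of fibroblasts at 24 h, with 28.2% of the cells, and when cells were clustered without cell cycle genes a fibroblast cluster led by Cxcl5, Cxcl1 and Ptx3 (56 and 2 cells) could not be named and the list median moved to 0.00. Within cluster 13 the median was −0.92. Genes that cell dissociation can induce fell in 5 of 16 and rose in 0 in fibroblasts (median −0.75, and −0.84 within cluster 13). The part of handling in the fibroblast values was not tested. Interferon-induced genes rose in 4 of 19 and fell in 1 (median 0.19, and −0.02 without doublet removal), with a median of 1.56 within cluster 13.

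Of 16 metalloproteinases and inhibitors 2 rose and 6 fell. The inhibitor Timp1 rose from 2134 to 4882 CPM, 1.19 (1.15 to 1.24), with 706 in sham, and the inhibitor Timp3 fell from 531 to 149 (−1.84) with the matrix proteases Mmp3 (441 and 93.5, −2.24) and Mmp2 (310 and 114, −1.45). Growth factors rose in 2 of 19 and fell in 7 (median −0.70, and 0.31 without cell cycle genes in the clustering), with Fgf2 at 85.7 and 11.7 CPM (−2.87), Vegfa at 149 and 31.5 (−2.24) and Tgfb1 at 79.4 and 86.4 (0.12). Glucocorticoid-induced genes fell in 6 of 15, among them the metallothionein Mt2 (2483 and 404, −2.62). By the naming rule the highest were Birc5, Pclaf (1.18 and 122, 6.69), Cenpa, Stmn1 (7.07 and 258, 5.19), Cthrc1, the actin-bundling Palld (13.4 and 174, 3.70), Fn1 and Tubb2b (13.4 and 127, 3.24). The lowest were the anticoagulant receptor Thbd (139 and 13.3, −3.38), the transcription factor Klf4 (248 and 25.3, −3.29), Fmo2 (220 and 23.7, −3.21), Tmem100 (109 and 13.6, −3.00), the acute phase gene Serpina3n (904 and 120, −2.92), Gsta3 (122 and 16.6, −2.88), Spon1 (148 and 20.1, −2.88) and Snhg9 (114 and 16.2, −2.81).

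**Figure D3:**
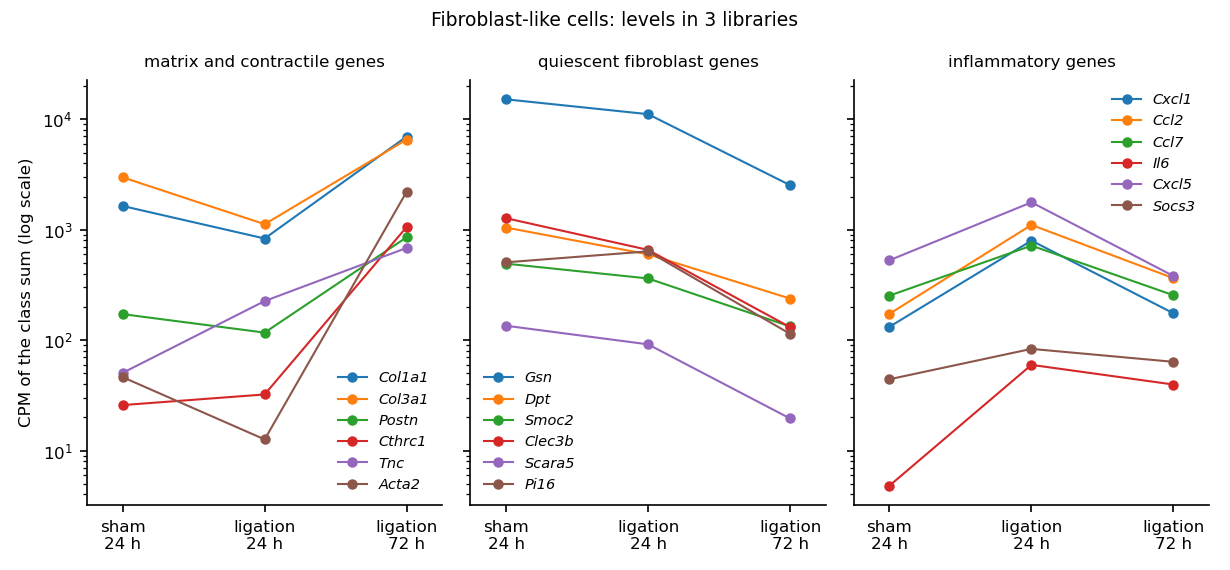
Level in fibroblasts in CPM (log scale) in sham hearts at 24 h and in ligated hearts at 24 h and 72 h, for 6 matrix and contractile, 6 quiescent and 6 inflammatory genes, each point the sum over a class of 1 library. Acta2 goes from 46.2 in sham over 12.6 to 2215, Gsn from 15193 over 11149 to 2534, and Cxcl5 from 529 over 1772 to 381.

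Endothelial cells lost transcripts of capillary lipid uptake, and some genes of sprouting vessels and of the interferon response rose. Of 8108 genes, 270 rose (3.33%) and 436 fell (5.38%), with a median gene of −0.15. The count of higher genes moved with the clustering and filter: 447 with the pair clustered alone, 428 without cell cycle genes, 460 with a minimum of 20 UMIs, and 77 with cells thinned. Clusters 0 (320 and 84 cells), 20 (150 and 67), 6 (111 and 23) and 10 (100 and 34) held most cells at both times, with clusters 28 (25) and 25 (21) at 72 h. Cluster 20 held 24.3% of the class UMIs at 24 h and 55.2% at 72 h, so values within clusters are given beside the sums.

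Of 20 genes of capillary lipid uptake 8 fell and 0 rose, with a median of −0.90 (relative −0.75). Lpl, the lipase that frees fatty acids at the capillary wall, stood at 854 and 126 CPM, −2.75 (−2.97 to −2.55), with 572 in sham. The carbonic anhydrase Car4 (676 and 100, −2.75), the fatty acid receptor Cd36 (4682 and 1100, −2.09) and the fatty acid binder Fabp4 (33423 and 14102, −1.24) fell, and Gpihbp1, the anchor of the lipase, had 2347 and 1198 (−0.97). Within cluster 0 the list median was −0.13, where all genes had −0.09, yet Lpl had 1338 and 457 CPM (−1.55), Car4 a ratio of −1.60 and Cd36 one of −0.87. Within clusters 20 and 10 the list medians were −0.50 and −2.10.

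Of 25 angiogenic genes 7 rose and 0 fell, with a median of 0.23 (relative 0.38). Aplnr, the apelin receptor of sprouting endothelium, stood at 43.8 and 195 CPM, 2.15 (1.86 to 2.45), and its ligand Apln at 122 and 262 (1.10), with sham levels of 156 and 12.8. Plvap, which forms the diaphragms of leaky vessels, rose from 141 to 504 CPM, 1.84 (1.67 to 2.01). The receptors for the vessel growth factor Vegfa, Kdr (727 and 512, −0.51) and Flt1 (878 and 432, −1.02), did not meet the rule. Within cluster 20 Plvap had 35.8 and 438 CPM (3.61) and Apln 467 and 464 (−0.01), and Aplnr had a ratio of 1.94 within cluster 0. The list medians within clusters 0 and 20 were 0.24 and 0.07, and cluster 10, whose cells have few UMIs, went the other way, at −2.27 with 5 of 5 measured genes below 0, where all genes stood at −0.68.

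Interferon-induced genes rose in 11 of 23 and fell in 0 (median 0.95, relative 1.11), with Irf7 at 52.8 and 154 CPM (1.54), Bst2 at 463 and 1086 (1.23) and Isg15 at 165 and 358 (1.11). The medians within clusters 0 and 20 were 0.25 and 1.19. Of 15 genes of adhesion and activation 4 fell and 1 rose (median −0.58): the leukocyte ligand Vcam1 stood at 167 and 50.2 CPM (−1.74) and the acute phase protein Lrg1 at 48.4 and 121 (1.32). The list was higher within cluster 0 (median 0.32, 6 of 7 genes above 0) and lower within cluster 20 (−0.95). Of 17 genes tied to blood flow and vessel quiescence 4 fell and 1 rose (median −0.59, and −0.34 and −0.57 within clusters 0 and 20). The one that rose, Angpt2 (25.8 and 68.2 CPM, 1.40), is known to be held down by steady flow. Those that fell included the flow-induced transcription factors Klf2 (1698 and 734, −1.21) and Klf4 (386 and 117, −1.73) and the lipid receptor S1pr1 (735 and 274, −1.42). Vessel matrix genes rose in 6 of 15 (median 0.46), led by Col15a1 (37.2 and 227, 2.61) and Col18a1 (38.5 and 215, 2.48), with list medians of −0.17 (6 of 7 genes below 0) within cluster 0 and 0.54 within cluster 20. Pdgfb, which recruits pericytes, fell from 702 to 223 CPM (−1.65). Glucocorticoid-induced genes fell in 9 of 14 (median −1.26), with the kinase Sgk1 at 687 and 245 (−1.48), and the cell cycle inhibitor Cdkn1a stood at 869 and 266 (−1.71) against 99.0 in sham. Dissociation genes fell in 5 of 16 (median −0.83), and their part was not tested.

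By the naming rule, endothelial genes with the highest ratios also included Prnd (9.93 and 156 CPM, 3.98), Fam167b (19.2 and 167, 3.12), Ift122 (18.3 and 125, 2.77) and vimentin, Vim (1591 and 6191, 1.96). The lowest besides Lpl and Car4 were Cped1 (203 and 28.5, −2.83), the protease inhibitor Timp4 (880 and 149, −2.56), the retinoid binder Rbp7 (1142 and 211, −2.43), the semaphorin Sema3g (108 and 20.5, −2.40), the junction protein Pkp4 (212 and 40.3, −2.40) and Mylip (151 and 29.8, −2.34), which marks lipoprotein receptors for breakdown. Sema3g and Rbp7 are among the leading genes of cluster 6, which held 111 of 735 endothelial cells at 24 h and 23 of 254 at 72 h. Timp4 and Car4 are among those of cluster 0 (320 and 84 cells). The part of the cluster mix in the ratios of Sema3g, Rbp7 and Timp4 was not tested. Markers of other cells moved in this class: 8 red cell markers summed to 39.1 CPM at 24 h (5 above 0) and 29943 at 72 h (8 above 0), with 91.7% of these UMIs at 72 h in 5 cells, and 24 monocyte/macrophage markers to 667 (20 above 0) and 2241 (23 above 0, Ear2 at 0). Their part in the ratios was not tested.

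**Figure D4:**
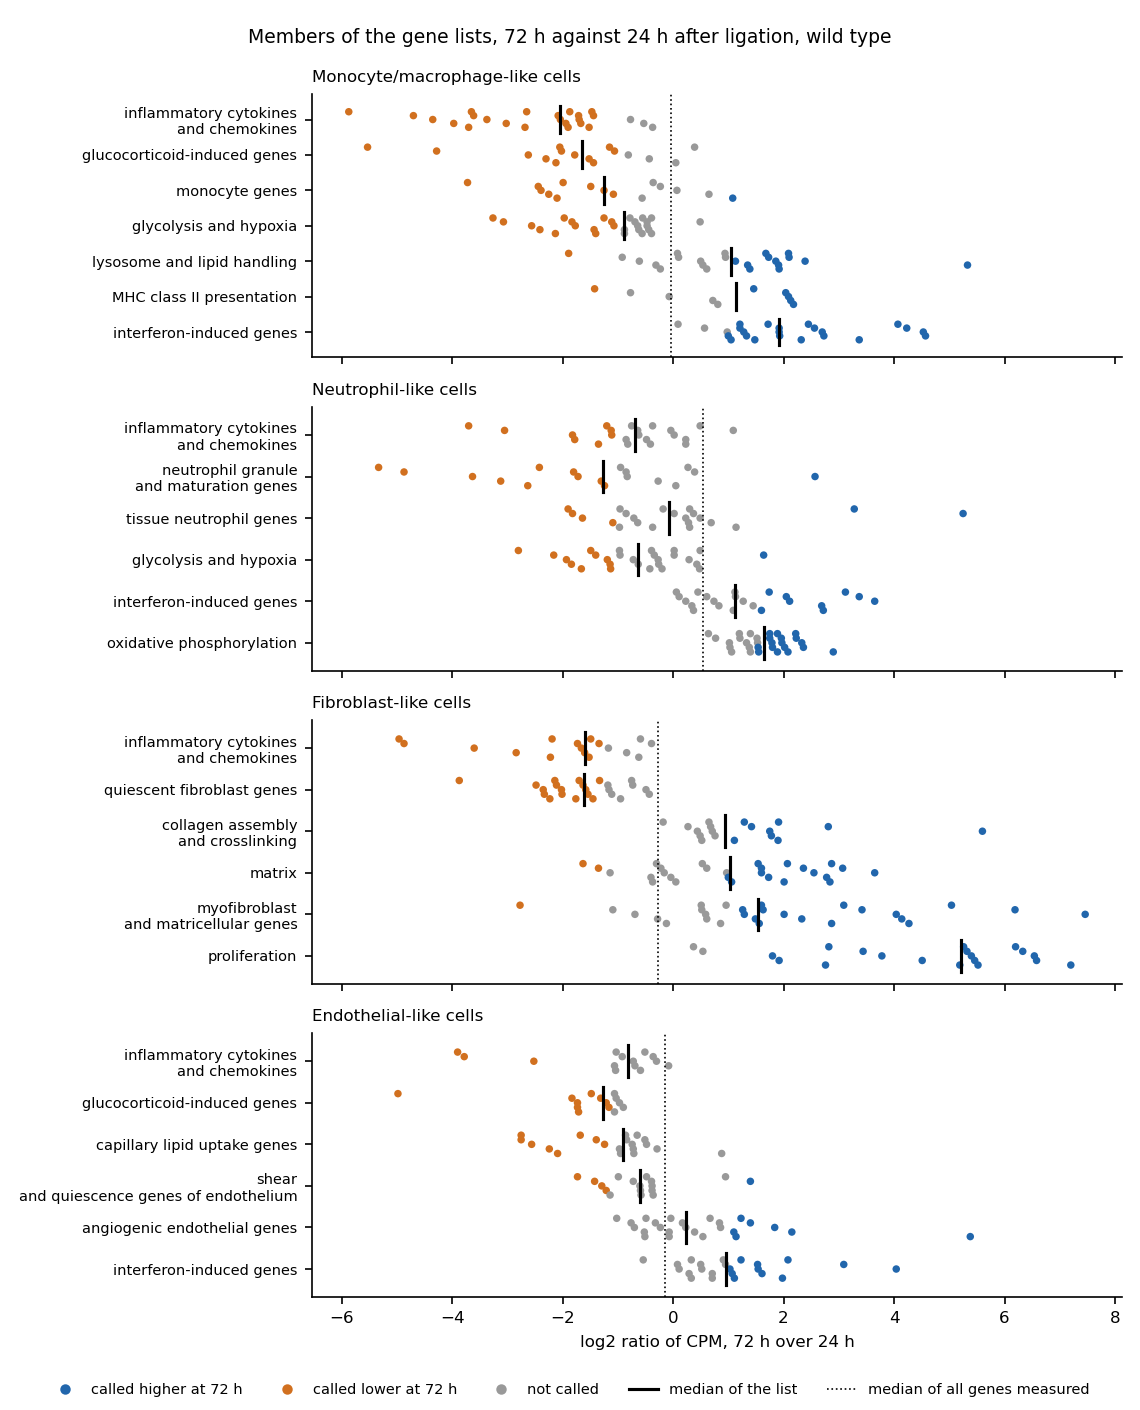
Log2 ratio of 72 h to 24 h (x axis) of each measured member of gene lists (rows) in 4 classes, with genes that rose in blue, genes that fell in orange, the rest in grey and genes at 0 at one time drawn at their bound. Black bars are list medians and the dotted line is the median of all genes of the class. The inflammatory list lies at −2.04 in monocyte/macrophage cells, −0.69 in neutrophils, −1.60 in fibroblasts and −0.82 in endothelial cells, and the interferon list, not drawn for fibroblasts, at 1.92, 1.13 and 0.95 in the other 3.

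B cells, the other class with 100 cells at both times (104 and 188), moved less in number. Of 2282 genes, 43 rose (1.88%) and 80 fell (3.51%). The naming rule gave Selenoh (34.1 and 123 CPM, 1.84), the surface antigen Ly6a (245 and 721, 1.56), which interferon can induce, and Syngr2 (76.8 and 200, 1.38) as the highest, and Hnrnpa0 (279 and 47.3, −2.56), Rab21 (185 and 49.0, −1.92) and Tle4 (139 and 38.5, −1.86) as the lowest.

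Which class held the transcripts of a secreted factor differed between the times, since both levels and shares of cells moved. Il1b lay mostly in neutrophils, which held 80.8% of its UMIs at 24 h and 70.6% at 72 h, while its level over all cells was 3054 and 838 CPM. Ccl2 lay in monocyte/macrophage cells (91.2% and 85.6%), at 2301 and 1062 CPM. Osm went from neutrophils (64.3% and 22.3%) to monocyte/macrophage cells (31.9% and 64.5%) at 337 and 29.0 CPM. Cxcl10 did so too, with neutrophils at 41.4% and 6.51% and monocyte/macrophage cells at 25.4% and 83.2%, while its level was 51.7 and 145. Of 592 Il6 UMIs at 24 h, 63.5% were in monocyte/macrophage cells and 25.7% in fibroblasts. Of 184 at 72 h, 9.78% and 66.3% were, many of the latter in 1 cell as given above.

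Among repair factors, Igf1 lay in fibroblasts at 24 h (60.6%, and 10.2% at 72 h) and in monocyte/macrophage cells at 72 h (71.3%, and 32.2% at 24 h), at 25.5 and 48.2 CPM over all cells. Pdgfb lay in endothelial cells at 24 h (85.9%) and was split between these (40.3%) and monocyte/macrophage cells (36.0%) at 72 h. Spp1 stayed with monocyte/macrophage cells (92.2% and 86.4%), at 2039 and 3812 CPM. Timp1 lay in fibroblasts at 69.5% and 82.8%. Tgfb1, which drives myofibroblast formation, lay in monocyte/macrophage cells at 55.8% and 66.2%, at 250 and 212 CPM over all cells.

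**Figure D5:**
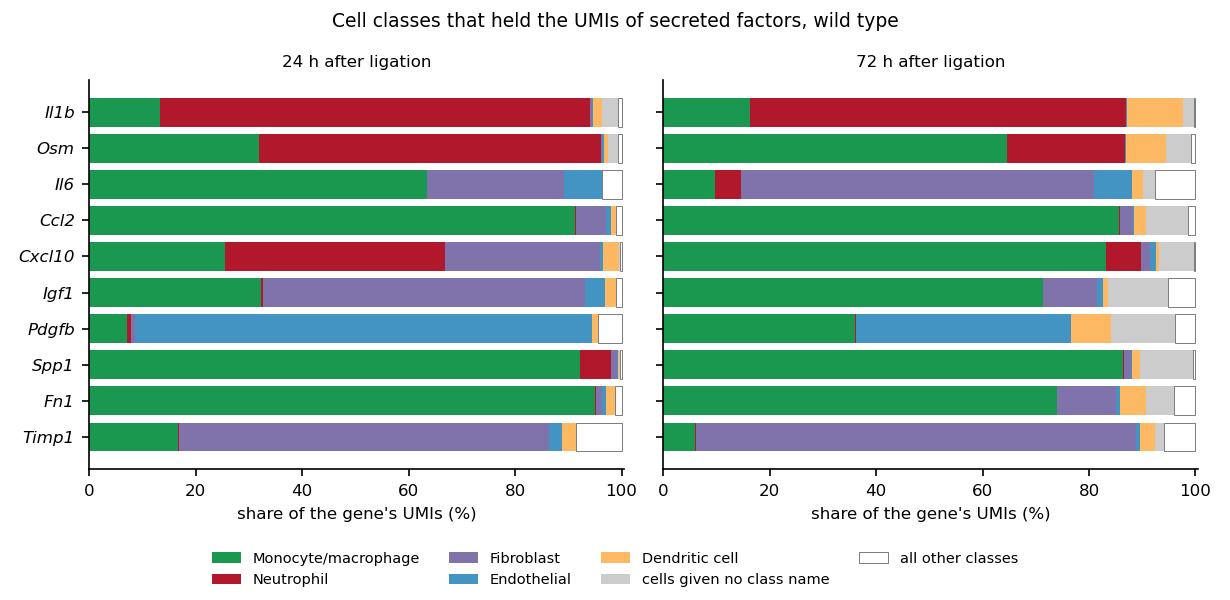
Share of the UMIs of 10 secreted factors in each cell class, in percent, at 24 h and 72 h, stacked to the whole of each library. Il1b stays mostly in neutrophils (80.8% and 70.6%), and Igf1 moves from fibroblasts (60.6% and 10.2%) to monocyte/macrophage cells (32.2% and 71.3%).

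The same comparison in Trpm4 knockout mice (strain B6.Cg-Trpm4tm1.2-PG, 13380 kept cells) shares no library with the wild-type pair, but differs in genotype and in depth, with a median of 1351 UMIs per cell at 72 h. It is no replicate. In its monocyte/macrophage cells 5.0% of genes rose and 3.01% fell. Of the genes measured in both pairs, 249 rose in both, which is 37.2% of the wild-type list and 58.3% of the knockout list, and 235 fell in both, 31.9% and 83.6%. In knockout neutrophils 13.8% rose and 4.41% fell, with 614 higher genes shared (60.1% and 72.6%) and 219 lower genes shared, of 438 in wild type and 303 in the knockout. In knockout fibroblasts 10.1% rose and 5.11% fell, with 192 higher (42.7% and 38.6%) and 209 lower genes shared (30.1% and 49.3%). In knockout endothelial cells 5.17% rose and 4.97% fell, with 128 higher (54.9% and 49.6%) and 133 lower genes shared (36.9% and 37.3%). Of the genes that fell in wild type, 25 in monocyte/macrophage cells, 39 in fibroblasts, 4 in endothelial cells and 2 in B cells rose in the knockout, and of those that rose, 4 in endothelial cells and 1 in fibroblasts fell. Knockout B cells, of which 65 at 72 h were under the minimum of 100, had 2.50% of genes higher and 1.93% lower. Of the wild-type B cell genes measured in both, 0 of 14 higher and 6 of 37 lower ones were shared, and the knockout ratios of the 3 named higher genes were −0.35 for Selenoh, −0.33 for Ly6a and −0.88 for Syngr2.

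For single genes the knockout log2 ratio was −3.53 for Il6, −3.95 for Cxcl3, −0.07 for Il1b and 2.90 for Ifit3 in monocyte/macrophage cells, beside −5.87, −4.70, −2.08 and 4.07 in wild type. It was 1.42 for Apoe and 4.47 for Gpnmb there, beside 2.09 and 5.33. In neutrophils it was −4.76 for Cd177, 2.83 for Siglecf and 4.64 for Ltc4s, beside −5.33, 3.28 and 5.25. In fibroblasts it was 3.71 for Acta2, 1.88 for Col1a1, −0.06 for Tnc and −0.06 for Serpinh1, beside 7.46, 3.07, 1.60 and 1.91. In endothelial cells it was −2.64 for Lpl, 2.74 for Col15a1 and 1.61 for Aplnr, beside −2.75, 2.61 and 2.15, and −1.58 for Angpt2, a signal that loosens vessels, beside 1.40. Whether genotype, depth or the pools set the gaps was not tested.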

How the data were processed

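The deposited matrices give, for each cell and each of 32285 genes, a whole-number count of UMIs. Both the submitters' processing notes and the headers name Cell Ranger 6.0.0, and the notes name the build mm10. A filter after Cell Ranger is not given in the sources used here, and no deposited cell had under 500 UMIs. The 2 libraries held 3625 and 4678 deposited cells with 23180056 and 45649061 UMIs at 24 h and 72 h, of which 3466 and 4560 cells passed the limits on genes and mitochondrial UMIs. Of these, 105 and 175 with the highest Scrublet scores were removed as likely doublets (a rate of 0.8% for every 1000 cells deposited). Scrublet's own threshold had marked 4 and 1. Each cell of the 6 libraries was scaled to 10000 UMIs and put on a log scale. From 2000 variable genes, leaving out Trpm4 and the genes of hemoglobin, ribosomal proteins and mitochondria, 30 principal components, 20 neighbours and Leiden clustering at resolution 1 (scanpy 1.11.5, leidenalg 0.10.2) gave the clusters, with no correction between libraries. A cluster was named from marker genes among its leading genes, and needed 3 detected markers. The names are rebuilt, and no annotation of cells by the authors was used.

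Within a class, UMIs were summed over cells and scaled to 1000000 (CPM). The interval of a ratio is the exact conditional one for a pair of Poisson counts, and shares have the Clopper-Pearson interval (scipy 1.17.1). Where a library had 0 UMIs, a bound was taken at 3 counts. PCR copies are removed by UMIs, but intervals cover counting error only. The genes named by rule are the 8 highest and 8 lowest ratios of a main class (3 and 3 in B cells) among genes that rose or fell, with 100 CPM in the higher library, found in 10% of its cells, with at most 20% of the UMIs in 1 cell and at least 0.25 of the level of the class where it is highest, without mitochondrial, ribosomal protein, hemoglobin and unnamed genes. Members of the 27 gene lists could also be named, and some genes are in several lists. The members and lists were chosen with earlier results of these data known. In the files 78 rows repeat a gene symbol. Hspa1a and Hspa1b are near-identical, so their separate counts are uncertain. The ratio and call steps were tested on simulated data. Alternatives were Leiden resolutions 0.5 and 2, clustering the pair alone, no doublet removal, a mitochondrial limit of 10%, equal weight per cell, thinning to 1500 UMIs, TMM scaling, a minimum of 20 UMIs and, added after seeing the data, clustering without cell cycle genes. Mx1 was not analysed here, and results of 2 other genes are not reported here.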

Additional observations from a re-analysis of the deposited data

How the results depend on the processing

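Each comparison rests on 1 library per time, so no setting could leave out a replicate, and no paired analysis was possible because each group has 1 library and no test. The limits are the pools, the sort, the rebuilt classes, and depth in fibroblasts and endothelial cells. All 64 genes named by rule in the main classes kept their direction and call in the 629 values that the alternatives gave. They were chosen as the highest and lowest ratios among genes that rose or fell, so this says little about other genes. The named B cell genes are not in this count. Thinning each cell to 1500 UMIs gave 406 higher and 393 lower genes in monocyte/macrophage cells, 100 and 171 in fibroblasts, and 77 and 214 in endothelial cells, with fewer UMIs by construction. With TMM scaling, 959 neutrophil genes were lower and 790 fibroblast genes higher. In endothelial cells 447 genes were higher with the pair clustered alone, 428 without cell cycle genes and 460 with a minimum of 20 UMIs. For the inflammatory list the median in monocyte/macrophage cells was −1.91 without doublet removal, −2.20 without cell cycle genes, −1.90 with equal weight per cell and −1.79 when thinned; in neutrophils it was −0.86 without cell cycle genes and −1.37 with TMM, and in fibroblasts −1.88 without doublet removal, 0.00 without cell cycle genes, −1.85 when thinned and −1.33 with TMM. For the interferon list in monocyte/macrophage cells it was 1.71 at resolution 0.5, 1.78 with the pair alone, 1.80 without cell cycle genes and 2.03 with TMM. The fibroblast matrix median was 0.82 without cell cycle genes, 0.79 when thinned and 1.30 with TMM, the median of tissue neutrophil genes −0.76 with TMM, and that of endothelial adhesion genes −0.85 with the pair alone. Directions turned for the interferon list in neutrophils with the pair alone (−0.72) and in fibroblasts without doublet removal (−0.02), for resident macrophage genes when thinned (0.20), for MHC class II genes in endothelial cells without doublet removal (−0.34), for growth factors in monocyte/macrophage cells with equal weight per cell (0.15) and in fibroblasts without cell cycle genes (0.31), and in neutrophils with TMM for haem and iron genes (−0.17) and dissociation genes (−0.43). The causes were not tested. With the pair alone an interferon-led neutrophil cluster lost its name, as given above. Without cell cycle genes a fibroblast cluster led by Cxcl5, Cxcl1 and Ptx3 lost its name, the setting in which the fibroblast inflammatory median was 0.00. The share difference of monocyte/macrophage cells was 31.4 points at resolution 0.5, 28.9 with the pair alone and 28.1 without cell cycle genes; that of neutrophils was −17.1 with the pair alone, that of fibroblasts −0.904 without cell cycle genes and that of endothelial cells −13.6 with a mitochondrial limit of 10%. Of 499 recomputed medians of the other 50 lists by class, 8 turned, 379 stayed within their interval and 112 moved without turning.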

Other observations

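Pericytes, the mural cells of capillaries, were few (50 cells at 24 h and 35 at 72 h) and entered no comparison. In them Acta2 stood at 520 CPM at 24 h and 7911 at 72 h, Tagln at 301 and 3477, and the pericyte marker Rgs5 at 7669 and 3123. Col1a1 stood at 72.9 and 953 CPM, and Myh11, the smooth muscle myosin, at 82.6 and 62.4. In smooth muscle cells (54 and 31) Acta2 stood at 13715 and 14523 CPM and Col1a1 at 46.1 and 12.2.

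Few UMIs came from the interferon genes Ifnb1 and Ifng themselves. Ifnb1 had 31 UMIs at 24 h, all in 1 fibroblast, and 0 at 72 h. Ifng had 6 UMIs in 1 T cell at 24 h, and at 72 h 23 UMIs in 8 T cells, 65.2% of them in 1 cell, with 2 more in B cells. The interferon-induced list was higher in the class sums at 72 h than at 24 h all the same, and which cells secreted interferon cannot be read from these counts.

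Dendritic cells numbered 64 at 24 h and 404 at 72 h, too few at 24 h for a comparison of genes. The class rests on cluster 5 and 3 markers. At 72 h it also held Fn1 at 438 CPM, Chil3 at 236 and Ms4a7 at 233, against 1299, 619 and 985 in monocyte/macrophage cells. Its Il1b stood at 796 CPM, against 241 there. Where the line between these classes lies was not tested. Flt3, the receptor that keeps up dendritic cells, stood at 30.8 and 37.8 CPM and Zbtb46, a factor of conventional dendritic cells, at 20.6 and 9.19.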
